A study of Danio rerio with 6 samples.

Results

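The genes described here encode the proteins of the cytosolic ribosome in zebrafish larval heads, compared between *fbln1* mutants and WT. A gene was taken by its name: the symbol had to begin with rpl or rps and a digit, or with the stem of the acidic stalk proteins (rplp or rpp and a digit from 0 to 2), and the ribosomal protein S6 kinases and the Rps19-binding proteins were left out. This rule took 87 of the 32520 rows of the table. It used no measured value. Of the 87, 44 are named for proteins of the large subunit or their paralogs, 4 for proteins of its stalk (*rplp0*, *rplp1*, *rplp2*, *rplp2l*) and 34 for proteins of the small subunit or their paralogs. The remaining 5 (*rpp14*, *rpp21*, *rpp25a*, *rpp25b*, *rpp25l*) are subunits of RNase P and RNase MRP, enzymes that trim tRNA and ribosomal RNA precursors, whose names share the stem. They are not ribosomal proteins and are given apart, so that most values below concern the remaining 82 genes.

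RNA was sequenced from heads of larvae at 10 days post fertilization (dpf), in 3 pools of homozygous *fbln1*-/- mutants of the CRISPR/Cas9 line ulg075, which carries a small deletion in the coding region, and in 3 pools of WT, labelled ABwt, with 21 heads per pool. The study's account of RNA extraction gives pooled heads, whereas its accounts of sequencing and of the results speak of whole larvae. The libraries are called heads here after the extraction account, and the tissue was not tested. Mutant and WT larvae came from crosses of heterozygous parents on the AB background and were told apart by genotyping the bodies, and no treatment was given. The housing notes name a reporter line (ulg071 Tg), and the labels do not say whether these heads carried it. *fbln1* encodes fibulin 1, a glycoprotein of the extracellular matrix. The study asked what its loss changes in the developing head skeleton; here the same libraries are read for the protein synthesis machinery. The pools were made as 3 independent batches with WT siblings, but no label ties a mutant pool to a WT pool. A pool averages many larvae, so p-values rest on the spread between 3 pools per genotype and not between larvae. The limma fit also draws on the spread of all tested genes.

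Ribosomes translate messenger RNA into protein. The small subunit decodes the message, and the large subunit joins the amino acids. Each subunit is built in the nucleolus from ribosomal RNA and ribosomal proteins, most of which are needed in equal amounts. Vertebrate ribosomal protein messages begin with a pyrimidine tract, the 5′ terminal oligopyrimidine (TOP) motif, through which mTOR complex 1 adjusts their translation, so the amount of message and the amount of protein made need not move together. Several ribosomal proteins have a paralog that can take their place in the ribosome, and unassembled Rpl5 and Rpl11 bind the ubiquitin ligase Mdm2.

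The libraries held between 15174207 and 18721515 reads on genes, so 3 reads, taken as the detection limit, corresponded to 2.60 to 3.20 normalized counts, far below any of the 82 genes. The deposited values are read counts divided by 1 size factor per library, and a level below is such a normalized count. It is not divided by gene length, so levels are compared between genotypes and not between genes. All 87 genes passed the filter on low values (3 or more libraries with a normalized count of 10 or more), as did 20691 genes of the table. *fbln1* itself gave 93.2, 53.1 and 39.9 normalized counts in the mutant pools, against 77.4, 136 and 70.4 in the WT pools (adjusted p = 0.162, limma), so the genotypes overlapped at this gene and rest on the labels. Genes of other tissues differed between the genotypes. All 8 gut and pancreas markers, all 4 skeletal muscle markers and 8 of 9 rows of dividing-cell markers were called higher in the mutant, whereas 2 of 7 head markers were (*gfap*, *otomp*). The markers of each kind summed to 133940 to 206891 in mutant and 68355 to 121734 normalized counts in WT pools for gut and pancreas, 102356 to 149655 and 46089 to 80293 for muscle, 6454 to 7310 and 1204 to 1310 for dividing cells, and 97231 to 119758 and 103071 to 121361 for the head. Of the erythroid markers, 2 were tested and higher, and the 5 globin rows held at most 3 normalized counts in any library. Of the neutrophil and macrophage markers, 1 of 4 was higher. In bulk tissue, fewer cells of a type and less RNA per cell cannot be told apart.

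As a class, ribosomal protein genes took nearly the same part of the transcriptome in both genotypes. The 82 genes held 8.38%, 8.99% and 8.26% of all gene counts in the mutant pools, and 8.57%, 8.26% and 8.15% in the WT pools. The ranges overlapped, with the highest share in mutant pool 2 and the next highest in WT pool 1. With the 5 RNase P genes, the share averaged 8.54% ± 0.39 in mutant and 8.33% ± 0.22 in WT heads (SD, n = 3 each), a difference of 0.215 percentage points that was smaller than the SD of the mutant pools. Without mutant pool 2 the difference was -0.0077 percentage points. The balance of the subunits hardly moved. Summed large subunit counts, stalk included, were 1.57, 1.57 and 1.57 times the summed small subunit counts in the mutant pools, against 1.56, 1.57 and 1.58 times in the WT pools.

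The genes of the class moved together from pool to pool within a genotype. Mutant pool 2 was the highest mutant pool for 74 of the 82 genes and mutant pool 3 the lowest for 79. WT pool 1 was the highest WT pool for 80 genes, and WT pool 2 was the lowest for 52 and WT pool 3 for 29. The median deviation of the 82 genes from their own means, on the log2 scale, was 0.04, 0.09 and -0.04 in mutant pools 1 to 3, against 0.07, -0.09 and -0.06 in WT pools 1 to 3. For 49 of the 82 genes the SD between pools, averaged over the genotypes, was larger than the difference between the genotype means. The same pools were highest within their genotype for pancreatic enzymes. The trypsin gene *prss1* gave 51006, 61895 and 39426 normalized counts in mutant pools, against 41702, 24225 and 29447 in WT pools, and *ctrb1*, a chymotrypsinogen gene, gave 54615, 67374 and 43740, against 49353, 27939 and 33155. Mutant pool 2 and WT pool 1 also held the largest share of mitochondrially encoded counts (mutant pools 4.28%, 4.44% and 4.32%; WT pools 4.57%, 4.16% and 4.12%). The part of either in the levels of ribosomal protein genes was not tested.

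**Figure D1:**
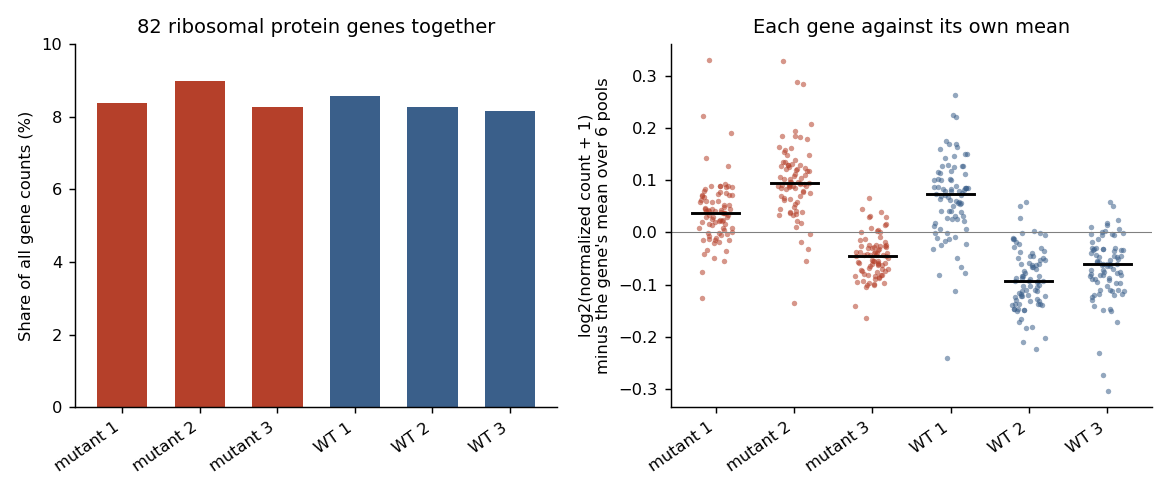
Left, the share of all gene counts (%) that fell on the 82 ribosomal protein genes in each pool, mutant pools in red and WT pools in blue. Right, for the same pools, each gene as a point at its log2(normalized count + 1) minus its mean over the 6 pools, with the median as a bar. Mutant pool 2 (8.99%) and WT pool 1 (8.57%) stood highest within their genotype, and the genotypes overlapped.

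Gene by gene, changes were few and small. In the limma comparison of all 20691 genes, 3 of the 82 ribosomal protein genes (3.66%, and 3.45% of all 87) were called higher in the mutant at an adjusted p under 0.05, where 18.9% of all tested genes were called higher. None was called lower, where 15.1% of all tested genes were, and at an unadjusted p under 0.05 there were 5 higher and 0 lower. edgeR, DESeq2 and limma-voom on the recovered reads also called 0 members lower, where 11%, 11.6% and 11% of all tested genes were. In either direction 33.9% of all tested genes were called. With an added limit of 0.5 on the size of the log2 fold change, 18.1% of all tested genes and none of the ribosomal protein genes remained. The mutant pools lay entirely above the WT pools for 9 members, among them *rpl22l1*, *rpl7l1*, *rpl5a*, *rps2*, *rps7*, *rplp0*, *rpl7a* and *rpl26*, and entirely below them for 1, whereas this held for 24.5% and 24.3% of all tested genes.

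The log2 fold changes of the 82 genes lay in a narrow band. Their median was 0.06, with quartiles of 0.01 and 0.11, a range of -0.17 to 0.42 and an SD of 0.096, whereas all tested genes had a median of -0.03, quartiles of -0.25 and 0.36 and an SD of 0.706. The median lay at 0.07 for the 44 genes of the large subunit, at 0.09 for the 4 stalk genes and at 0.06 for the 34 genes of the small subunit. Of the 82 estimates, 63 were above 0 and 19 below. The median standard error was 0.088 for the 82 genes and 0.144 for all tested genes, so the error of a typical member was smaller than that of a typical gene. The 95% interval stayed within 0.5 log2 units of 0 for 80 of the 82 genes (97.6%), against 35.3% of all tested genes, and the exceptions were *rpl22l1* and *rpl7l1*. A log2 fold change under 0.2 in size was found for 77 of 82 genes, against 36.2% of all tested genes.

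**Figure D2:**
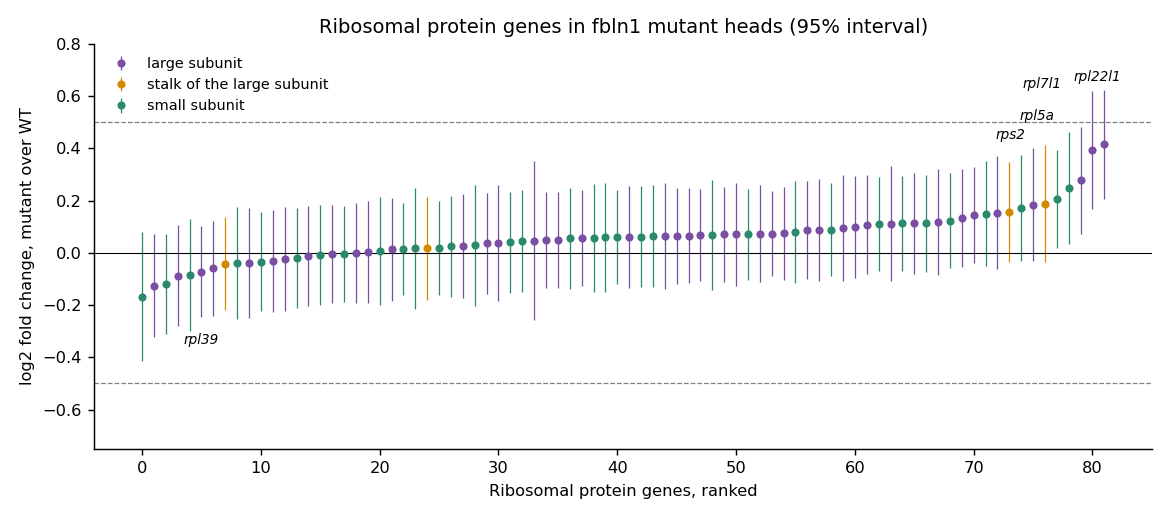
Log2 fold changes, mutant over WT, of the 82 ribosomal protein genes in ascending order, with 95% intervals from limma, coloured by subunit. Dashed lines mark 0.5 log2 units. All but 5 points lie within 0.2 of 0, and the 3 called genes, *rpl5a*, *rpl7l1* and *rpl22l1*, are the last at the right.

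Each of the 3 genes that rose has a paralog among the members. Members that were not called have paralogs too, such as *rps27.1* and *rps27.2*, or *rps26* and *rps26l*. *rpl22l1* (ENSDARG00000010244) encodes Rpl22-like 1, a paralog of the RNA-binding large subunit protein Rpl22 that in mouse is kept low by Rpl22. It gave 2337, 2266 and 1872 normalized counts in mutant pools, against 1721, 1608 and 1507 in WT pools. Every mutant pool exceeded every WT pool. The log2 fold change was 0.42 ± 0.09 (SE, n = 3 each; 95% interval 0.21 to 0.62), a level 33.5% higher in the mutant (adjusted p = 0.0078, limma). Its partner *rpl22* (ENSDARG00000070437) gave 8390, 8459 and 7670 normalized counts in mutant pools, against 8398, 7859 and 7184 in WT pools. The groups overlapped, with a log2 fold change of 0.07 (95% interval -0.12 to 0.25; adjusted p = 0.566).

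*rpl7l1* (ENSDARG00000042864), a paralog of *rpl7* whose product resembles the large subunit protein Rpl7, gave 557, 600 and 490 normalized counts in mutant pools, against 404, 452 and 395 in WT pools. The groups did not overlap. The log2 fold change was 0.39 ± 0.10 (SE, n = 3 each; 95% interval 0.17 to 0.62; adjusted p = 0.0139, limma). This call was lost without WT pool 1 (adjusted p = 0.0570) or without WT pool 3 (adjusted p = 0.0566). *rpl7* (ENSDARG00000007320) gave 27452, 29123 and 25985 normalized counts in mutant pools, against 27084, 24300 and 25956 in WT pools, which overlapped (log2 fold change 0.09, adjusted p = 0.459).

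*rpl5a* (ENSDARG00000020197) is 1 of 2 genes for Rpl5, which carries 5S ribosomal RNA into the large subunit. It gave 15431, 17240 and 14129 normalized counts in mutant pools, against 13352, 12089 and 13066 in WT pools. The groups did not overlap, although mutant pool 3 exceeded WT pool 1 by little. The log2 fold change was 0.28 ± 0.09 (SE, n = 3 each; 95% interval 0.07 to 0.48; adjusted p = 0.0400, limma). This was the least secure of the 3 calls. The adjusted p was 0.108 without mutant pool 1, 0.104 without mutant pool 2, and 0.0684, 0.118 and 0.0933 without WT pools 1, 2 and 3, and 0.0518 with the replicate number as a block. *rpl5b* (ENSDARG00000015862) gave 20753, 22254 and 19398 normalized counts in mutant pools, against 19674, 19394 and 18730 in WT pools. These overlapped, with a log2 fold change of 0.11 (adjusted p = 0.357). *rpl11* (ENSDARG00000043509), the partner of Rpl5 in the 5S particle, gave 15633, 15501 and 14614 in mutant pools, against 15327, 14263 and 14066 in WT pools, with a log2 fold change of 0.07 (adjusted p = 0.541).

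**Figure D3:**
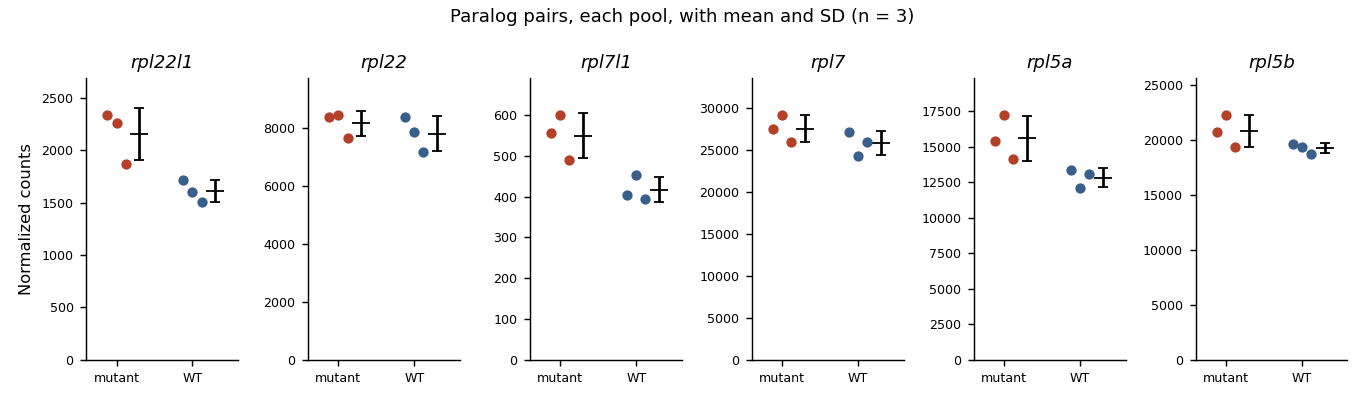
Normalized counts (vertical axis from 0, a separate scale for each gene) of *rpl22l1*, *rpl22*, *rpl7l1*, *rpl7*, *rpl5a* and *rpl5b* in each of the 3 mutant pools (red) and 3 WT pools (blue), with the mean and SD beside the points. The mutant and WT points separate for *rpl22l1*, *rpl7l1* and *rpl5a* and overlap for the partner of each.

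The balance within a pair of paralogs does not depend on the size factor, since both copies come from 1 library. Counts on *rpl22l1* were 0.279, 0.268 and 0.244 times those on *rpl22* in mutant pools, against 0.205, 0.205 and 0.210 times in WT pools. The ratio of *rpl7l1* to *rpl7* was 0.0203, 0.0206 and 0.0189 in mutant pools, against 0.0149, 0.0186 and 0.0152 in WT pools. The ratio of *rpl5a* to *rpl5b* was 0.744, 0.775 and 0.728 in mutant pools, against 0.679, 0.623 and 0.698 in WT pools. In these 3 pairs the ratio was larger in every mutant pool than in every WT pool, which follows in part from the calls that drew attention to the pairs.

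The stalk pair also separated the genotypes. *rplp2l*, a further gene for the acidic stalk protein P2, had 2.01, 1.94 and 1.95 times the counts of *rplp2* in mutant pools, against 1.73, 1.73 and 1.69 times in WT pools. Neither *rps27.1* over *rps27.2* (exact p = 0.2) nor *rps26l* over *rps26* (exact p = 0.5) separated the genotypes. In all, 5 of 7 pairs did, the 4 above, whose ratios were higher in the mutant, and 1 not reported here, whose ratio was lower in the mutant, each with p = 0.1 in a two-sided exact permutation test, the smallest p that 3 pools against 3 allow, or 0.14 after Benjamini-Hochberg adjustment over the 7 pairs, so that none could pass 0.05. The *rps26* pair and the pair not reported here were chosen after their values had been seen. Near-identical copies can exchange reads in counting, and the counting rule for reads that match both copies is not given in the sources used here.

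The stalk recruits the elongation factors. Its scaffold protein is encoded by *rplp0* (ENSDARG00000051783), which gave 50079, 54522 and 48207 normalized counts in mutant pools, against 46072, 43339 and 44532 in WT pools. The groups did not overlap, but the log2 fold change of 0.19 (95% interval -0.04 to 0.41) did not pass the test (adjusted p = 0.176, limma). *rplp2l* gave 10236, 10448 and 9833 in mutant pools, against 10013, 9236 and 8211 in WT pools, which overlapped (log2 fold change 0.16, adjusted p = 0.188). *rplp1* and *rplp2*, the P1 and P2 proteins that form the arms of the stalk, had log2 fold changes of 0.02 and -0.04 (adjusted p = 0.897 and 0.725).

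In the small subunit no gene was called. *rps2* (ENSDARG00000077291), whose protein lies at the mRNA entry of the small subunit, had the largest estimate there. It gave 48704, 49423 and 46180 normalized counts in mutant pools, against 42122, 40105 and 39169 in WT pools. The genotypes were well separated, but the log2 fold change of 0.25 ± 0.10 (SE, n = 3 each; 95% interval 0.04 to 0.46) missed the threshold (adjusted p = 0.0690, limma). *rps7* (ENSDARG00000042566), a protein needed for processing of the small subunit RNA, gave 18542, 19836 and 18062 in mutant pools, against 17399, 15776 and 15789 in WT pools, without overlap (log2 fold change 0.21, adjusted p = 0.0842). With edgeR on the recovered reads both passed (adjusted p = 0.0267 for *rps2* and 0.0498 for *rps7*), as they did with DESeq2, limma-voom and trimmed-mean scaling.

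Other named genes of the small subunit gave no call. *rps3*, which lies at the mRNA entry beside Rps2, had a log2 fold change of 0.06 (adjusted p = 0.612). *rps6*, the protein that S6 kinase phosphorylates, gave 26227, 27621 and 24273 normalized counts in mutant pools, against 24792, 22847 and 22731 in WT pools (log2 fold change 0.15, adjusted p = 0.229), and the groups overlapped. *rps27a*, made as a fusion of ubiquitin and a ribosomal protein, had a log2 fold change of 0.06 (adjusted p = 0.613), and *rps4x* had 0.06 (adjusted p = 0.657).

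Inherited loss of 1 copy of several ribosomal protein genes causes Diamond-Blackfan anaemia in humans, a failure of red cell production that often comes with craniofacial malformation. Beside *rpl5a*, *rpl5b*, *rpl11* and *rps7*, 8 further genes of this kind were read. None of the 8 was called. Their log2 fold changes were -0.08 for *rps29*, 0.01 for *rpl15*, 0.04 for *rps26*, 0.06 for *rps19*, 0.06 for *rps10*, 0.07 for *rpl35a*, 0.11 for *rps24* and 0.15 for *rpl26*. *rps19*, the gene most often mutated in that disease, gave 15596, 16566 and 14509 normalized counts in mutant pools, against 16013, 14004 and 14887 in WT pools. These groups overlapped. *rpl26* alone of the 8 separated them, with 20178, 20746 and 19004 in mutant pools, against 18960, 17658 and 17556 in WT pools (adjusted p = 0.202).

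Further named members were not called. *rpl13a*, which in human macrophages leaves the ribosome to silence inflammatory messages, had a log2 fold change of 0.09 (adjusted p = 0.459), *rpl13* had 0.03 (adjusted p = 0.841) and *rpl36a* had 0.06 (adjusted p = 0.633). *rps27l*, a paralog of the *rps27* genes, gave 376, 353 and 365 normalized counts in mutant pools, against 400, 318 and 360 in WT pools (log2 fold change 0.03, adjusted p = 0.858). WT pools 1 and 2 were the outermost of the 6. *rpl7a*, named here after its values were seen, had a log2 fold change of 0.18 (adjusted p = 0.166) and no overlap between genotypes.

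At the lower end no gene passed the test. *rpl39*, a small protein that lines the exit tunnel of the large subunit, gave 13808, 13597 and 13184 in mutant pools, against 16464, 14119 and 13807 in WT pools. The highest mutant pool exceeded the lowest WT pool by little (log2 fold change -0.12, adjusted p = 0.301). *rps27.1* had a log2 fold change of -0.12 (adjusted p = 0.314) and *rps27.2*, the other *rps27* gene, -0.03 (adjusted p = 0.791).

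*rpl37* is listed under 2 identifiers. The row ENSDARG00000034291 gave 11237, 11556 and 10727 normalized counts in mutant pools, against 11756, 10462 and 10040 in WT pools, whereas ENSDARG00000076360 gave 174, 157 and 136, against 145, 147 and 159. Neither was called (adjusted p = 0.625 and 0.822). A further 43 ribosomal protein genes had log2 fold changes of -0.09 to 0.15. None was called, and in each the genotypes overlapped.

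The 5 RNase P and RNase MRP genes were at low levels. *rpp25b* gave 141, 100 and 101 normalized counts in mutant pools, against 132, 145 and 122 in WT pools, and *rpp25a* gave 34.8, 40.6 and 19.9, against 43.4, 34.9 and 34.1. Log2 fold changes were -0.28 for *rpp25a*, -0.23 for *rpp25b*, -0.06 for *rpp21*, 0.12 for *rpp25l* and 0.12 for *rpp14*, with overlap in each. A few related genes have names that the rule does not take. Of these RNase P genes, *rpp40* was called higher (log2 fold change 0.75, adjusted p = 0.0154, limma). *rpp30* was called lower (-0.45, adjusted p = 0.0410), and *rpp38* was not called (0.05, adjusted p = 0.813). *rpsa*, the small subunit protein also known as the laminin receptor, gave 41689, 44776 and 39458 normalized counts in mutant pools, against 37588, 35811 and 35933 in WT pools (log2 fold change 0.20, adjusted p = 0.131). *rack1*, a scaffold on the small subunit, had a log2 fold change of 0.12 (adjusted p = 0.369).

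When each library was scaled to the geometric mean of its 82 ribosomal protein genes, so that a change is relative to the class, *rpl22l1* alone was called among them (log2 fold change 0.35, adjusted p = 0.0165, limma), where 30.6% of all tested genes were called in either direction. *rpl7l1* then had an adjusted p of 0.0545 and *rpl5a* of 0.0719. This scaling, and the fit without the pools in which the class stood highest (mutant pool 2 and WT pool 1), were chosen after seeing the data. Without those pools *rpl22l1* was also the 1 member called, where 10.2% of all tested genes were called higher. *rpl7l1* (adjusted p = 0.136) and *rpl5a* (adjusted p = 0.114) were then not called.

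Genes that make, load and assist ribosomes had more widely spread changes than the ribosomal protein genes, with an SD of the log2 fold changes of 0.142 to 0.380 in the 7 lists below, against 0.096 for the 82 genes. Their median standard errors were 0.0850 to 0.121, against 0.088 for the 82 genes, and the smallest SD, that of RNA polymerase I, was close to its standard error of 0.121. Among 74 tested genes of the mitochondrial ribosome, which translates the messages of the mitochondrial genome, 18 were called higher and none lower (27 higher and 0 lower at an unadjusted p under 0.05; 0 lower also with edgeR, DESeq2 and limma-voom), with a median log2 fold change of 0.22. *mrpl16* gave 491, 562 and 547 normalized counts in mutant pools, against 313, 353 and 348 in WT pools (log2 fold change 0.66, adjusted p = 0.000675, limma). *mrpl57* rose by 0.67 and *mrps6* by 0.65 on the log2 scale. The share called higher, 24.3%, stood beside 18.9% of all tested genes. The count fell to 7 of 74 without mutant pool 1, and to 8 without WT pool 1 or without WT pool 3. There, 14.4%, 14.8% and 15.4% of all tested genes were called higher. It was 2 without both mutant pool 2 and WT pool 1, where 10.2% of all tested genes were. In these fits the list was called higher less often than all tested genes. Over all tested genes, leaving out 1 pool gave 14.2% to 19.8% called higher and 6.06% to 17.6% called lower.

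Of 27 tested genes of the translation apparatus whose mammalian messages carry the TOP motif, 11 were called higher and 1 lower, with a median of 0.20. These are 40.7% and 3.70% of the list, beside 18.9% and 15.1% of all tested genes. *eef2a.1*, a gene for elongation factor 2, gave 330, 324 and 224 normalized counts in mutant pools, against 144, 163 and 153 in WT pools (log2 fold change 0.91, adjusted p = 0.00179, limma). Other genes of this factor held far more counts and were not called. *eef2b* averaged 63847 in mutant and 51740 in WT pools (log2 fold change 0.30, adjusted p = 0.0556, limma). *eef2l2* averaged 12241 and 14401 (log2 fold change -0.24, adjusted p = 0.0518, limma). *hnrnpa1a*, an RNA-binding protein, rose by 0.51 and *eif3ha*, a subunit of initiation factor 3, by 0.36, whereas *eef1a1a*, an elongation factor 1 alpha gene, fell by 0.21 (adjusted p = 0.0485). It averaged 3808 normalized counts in mutant and 4410 in WT pools. *eef1a1l1*, another elongation factor 1 alpha gene, averaged 133176 and 99961 and was called higher (log2 fold change 0.41, adjusted p = 0.0393, limma). The count called higher was 7 without mutant pool 1, without mutant pool 2 or without WT pool 1, and 6 without WT pool 3. The call of *eef1a1a* was lost without mutant pool 1 or without any 1 of the 3 WT pools.

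Of 64 tested genes with the name stem of initiation factors (eif and a digit), 19 were called higher and 4 lower, with a median of 0.13. These are 29.7% and 6.25%, beside 18.9% and 15.1% of all tested genes. The stem also took repressor genes (eif4ebp), which hold back the cap-binding protein. Of these, *eif4ebp3* (log2 fold change -0.42) and *eif4ebp3l* (-0.32) were called lower, *eif4ebp2* (0.28) higher, and *eif4ebp1* was not called. They are counted again with Myc and mTOR complex 1. The stem also takes eif genes of the TOP list, such as *eif3ha*, and *eif6* of the assembly list. These lists are thus not separate observations. *eif5a2*, a factor for peptide bond formation at difficult sequences, gave 3853, 4017 and 3475 normalized counts in mutant pools, against 2147, 2219 and 2104 in WT pools (log2 fold change 0.81, adjusted p = 3.3e-05, limma). Among genes for the cap-binding protein and its relatives, *eif4eb* rose by 2.03 and *eif4e1c* by 1.03 on the log2 scale, whereas *eif4ea* (0.20), *eif4e2* (0.28), *eif4e2rs1* (0.11) and *eif4e3* (-0.09) were not called. Without WT pool 3 the count called higher was 12, and the count called lower was 2 without mutant pool 1, WT pool 1 or WT pool 2.

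Of 73 tested genes for small nucleolar ribonucleoproteins (snoRNPs) and ribosome assembly, 11 were called higher and 7 lower, with a median of 0.05. These shares of 15.1% and 9.59% were no larger than the 18.9% and 15.1% of all tested genes. Of 7 core proteins of the particles that methylate and pseudouridylate ribosomal RNA, a group singled out after its values were seen, 6 were called higher. *fbl*, the methyltransferase fibrillarin, gave 1014, 969 and 879 normalized counts in mutant pools, against 524, 638 and 517 in WT pools (log2 fold change 0.77, adjusted p = 0.00032, limma). *dkc1*, the pseudouridine synthase dyskerin, rose by 0.72 and *nop58*, a partner of fibrillarin, by 0.71. Outside this group, the 7 genes called lower included *rsl1d1* (log2 fold change -0.33), *rcl1* (-0.36) and *ddx21* (-0.33). The list's count called higher was 5 without mutant pool 1, 6 without mutant pool 2 or without WT pool 1, and 7 without WT pool 3, and the count called lower was 3 without mutant pool 1 and 4 without WT pool 1 or without WT pool 3.

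RNA polymerase I, which transcribes ribosomal RNA, had none of 12 tested genes called higher (1 at an unadjusted p under 0.05, and 1 with edgeR) and 1 called lower. These shares of 0% and 8.33% were no larger than the 18.9% and 15.1% of all tested genes. The gene called lower was *ubtf*, the upstream binding factor of the ribosomal RNA promoter. It gave 2330, 2294 and 2434 normalized counts in mutant pools, against 2820, 2755 and 2782 in WT pools (log2 fold change -0.24, adjusted p = 0.0162, limma). The call was lost without mutant pool 1, WT pool 1 or WT pool 3, each of which left 0 called lower. There, 8.66%, 6.06% and 8.13% of all tested genes were called lower. Among 25 tested genes that bind or target the nascent chain, 7 were called higher and 2 lower (28.0% and 8.0%, beside 18.9% and 15.1% of all tested genes), with a median of 0.18. *dnajc2*, a chaperone on the ribosome, rose by 0.82 and *srp9*, a protein of the signal recognition particle, by 0.65. The 2 genes called lower were *sec61g* (log2 fold change -0.38, adjusted p = 0.00612, limma) and *nacad* (-0.35, adjusted p = 0.0101). *naca* and *btf3*, which stand on the TOP list too, were not called. The count called higher was 2 without mutant pool 1 or without mutant pool 2, where 14.4% and 14.2% of all tested genes were. It was 3 without WT pool 1 or without WT pool 3 (all tested genes 14.8% and 15.4%). In these fits the list was called higher less often than all tested genes. Without mutant pool 3 the count was 12 (all tested genes 19.8%), and the count called lower was 1 without WT pool 1.

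Of 27 tested genes of Myc and mTOR complex 1, 2 were called higher and 11 lower (7.41% and 40.7%, beside 18.9% and 15.1% of all tested genes), with a median of -0.22. *mycn*, a Myc gene, gave 1017, 1037 and 1010 normalized counts in mutant pools, against 1328, 1266 and 1308 in WT pools (log2 fold change -0.35, adjusted p = 0.00371, limma). The list mixes activators with inhibitors, so its counts give no direction of activity. Genes called lower included the inhibitors *ddit4* (log2 fold change -0.64), *tsc2* (-0.30) and *tsc1b* (-0.25), and the activators *myca* (-0.37) and *rheb* (-0.28). *larp1b*, related to the TOP-binding protein Larp1, rose by 0.44 and *eif4ebp2*, which holds back the cap-binding protein, by 0.28, whereas *mtor* (log2 fold change -0.08, adjusted p = 0.440) and *larp1* (0.13, adjusted p = 0.424) were not called. The count called lower was 5 without WT pool 1 and 6 without WT pool 3, and the count called higher was 1 without mutant pool 1, WT pool 1 or WT pool 3 and 4 without mutant pool 3. Dividing-cell markers, with 8 of 9 rows called higher, moved in the same libraries as these lists, and so did the markers of gut, pancreas and muscle. Their part in the counts of called genes was not tested.

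**Figure D4:**
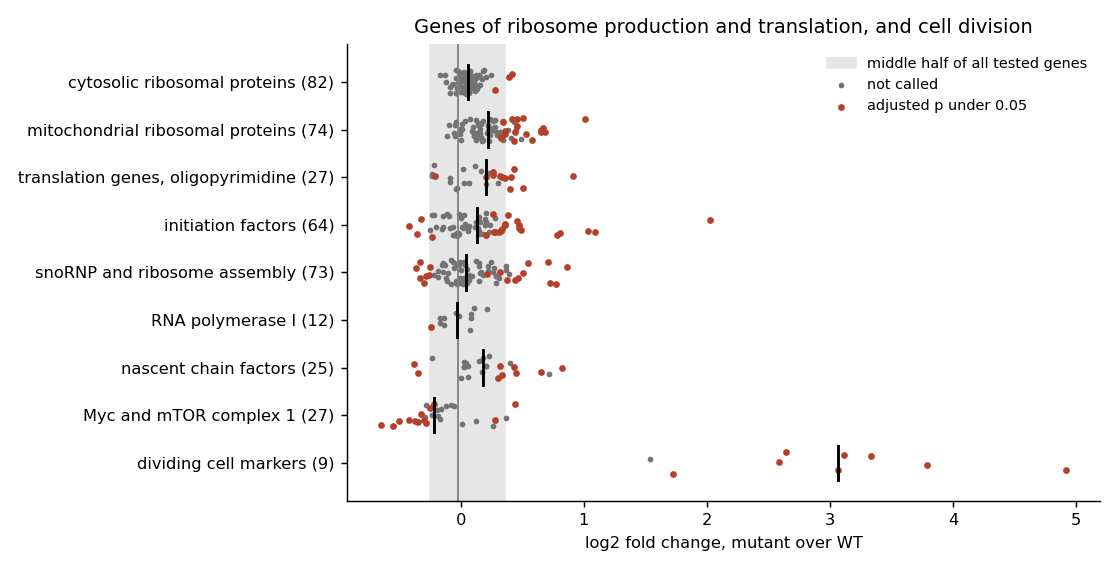
Log2 fold changes, mutant over WT, of each tested gene in the ribosome-related lists and of the dividing-cell markers, with the number of genes in brackets. Red points had an adjusted p under 0.05 in limma, black bars are medians, and the grey band spans the quartiles of all tested genes (-0.25 to 0.36) around their median (-0.03). The 82 cytosolic ribosomal protein genes, within -0.17 and 0.42, have the smallest SD (0.096) of the lists shown. The dividing-cell markers lie far to the right.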

How the data were processed

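PolyA RNA from pooled heads was sequenced after stranded library preparation. The authors aligned the reads to GRCz11 and deposited a signal per gene, namely normalized counts, that is whole reads divided by 1 DESeq2 size factor per library. A value divided by its library's step came out whole, within 0.1, for 100% of values, and these recovered reads gave the depths above. The authors' table of their own comparison, which holds fold changes, p-values and group means, was not used.

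Pools were grouped by their labels. limma 3.58.1 in R 4.3.3, with a variance trend, was fitted to log2(normalized count + 1) of all 20691 genes that reached 10 normalized counts in 3 or more libraries, two-sided, with Benjamini-Hochberg adjustment over all of them. A gene is called at an adjusted p under 0.05. Fold changes are on this log2 scale. Recovered reads were also tested with edgeR 4.0.16 (quasi-likelihood), DESeq2 1.42.0 and limma-voom. Other alternatives were scaling, filters, pseudocounts of 0.5 and 5, no variance trend, a replicate block and leaving out pools. The fitting script was tested on simulated data. Chi-square per degree of freedom between pools of 1 genotype was 6.07 to 16.0, more than sampling noise alone gives. Ratios and shares were computed in Python 3.11.15.

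Named genes were those called, and members with a role fixed in a list (stalk, 5S particle, paralogs, mRNA channel, Diamond-Blackfan anaemia genes). The members and all gene lists were chosen with earlier results of these data known. Whether the same replicate number marks a shared batch is not stated. Sequences and coordinates were not used here. A few genes and 1 gene list are not reported here.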

Additional observations from a re-analysis of the deposited data

How the results depend on the processing

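The count of members called higher was 3 with limma, 5 with trimmed-mean scaling, 5 with edgeR, 5 with DESeq2 and 7 with limma-voom, which added *rps2* and *rps7* and, with limma-voom alone, *rplp0* and *rpl7a*. Of all tested genes, 18.9%, 20.1%, 19.9%, 17.9% and 19.3% were called higher in these fits, in the same order. The count of members was 0 without the variance trend, where *rpl22l1* had an adjusted p of 0.0555 and 15.2% of all tested genes were called higher. It was also 0 with a limit of 0.5 on the log2 fold change, where 18.1% of all tested genes remained in either direction. It was 1 with scaling to the members (16% of all tested genes) and 1 without mutant pool 2 and WT pool 1 (10.2% of all tested genes). The latter setting left 2 to 8 genes called higher in the mitochondrial ribosome, TOP, initiation factor and assembly lists. In each of these fits the member called was *rpl22l1*. The strict list of 80 genes, without RNase P genes and the l1 paralogs, leaves out *rpl22l1* and *rpl7l1* by its definition. On it *rpl5a* was the 1 gene called higher. Leaving out 1 pool gave 1 to 3 members called higher, where 14.2% to 19.8% of all tested genes were. No setting called a member lower. *rpl22l1* passed the threshold in 18 of 19 alternatives (adjusted p from 0.000878 to 0.0555), *rpl7l1* in 14 (0.00517 to 0.136) and *rpl5a* in 9 (0.0130 to 0.118), which included pseudocounts of 0.5 and 5 but not the fit with no filter on low values (adjusted p = 0.0572). Of 33 named members that were not called, 12 changed sign in some alternative and 4 passed the threshold in any. The median of all 87 members lay 0.0853 log2 units above that of all tested genes, and from 0.0479 to 0.134 over the alternatives. The difference in their share of all counts ran from -0.0077 to 0.358 percentage points as 1 pool was left out. With the replicate number as a block, 2 members were called higher, since *rpl5a* was lost, where 19.5% of all tested genes were called higher. Deviations of same-numbered pools from their group means correlated across all genes at 0.043, 0.149 and 0.041. Not every pair exceeded 0.1 and no label ties the numbers to batches, so the block was not used as the main fit, and a shared batch was not settled. Without the variance trend 15.2% of all tested genes were called higher, against 18.9%, and 5.53% were called lower, against 15.1%. Depth was no limit for the members, whose lowest value in any pool, 19.9 normalized counts for *rpp25a*, exceeded the detection limit.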
